A study of Homo sapiens with 6 samples.

Results

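IKZF2, PRSS2, TFF3 and SHISA2 are 4 of the 40396 genes in the deposited expression table, and were grouped because their RNA was far more abundant after saracatinib (SAR) and because they fall outside the other gene groups described for this experiment. The choice used no numeric cutoff. The levels that led to it are those described here, so the differences of these 4 genes between the groups are given as a description, without a test.

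The cells were H1, an established human embryonic stem cell line, sampled by bulk RNA sequencing on day 3 of differentiation into definitive endoderm (DE), the embryonic layer that gives rise to gut, liver and pancreas. All cultures received 50 ng/ml activin A, with 2.5 µM CHIR99021 (a GSK3 inhibitor that activates Wnt signaling) during the first 24 hours. The 3 SAR samples also received 0.5 µM SAR, known as an inhibitor of Src family kinases, on all 3 days, and the 3 control samples an equal volume of DMSO. At this dose the paper reports no effective inhibition of Src phosphorylation, and reduced phosphorylation of focal adhesion kinase. All 6 libraries come from a single line, and the labels do not say whether replicates were separate cultures, so p-values measure the spread between these samples, which may be technical.

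The 4 genes have unrelated products. IKZF2 encodes Helios, a zinc finger transcription factor of the IKAROS family best known from regulatory T cells and blood stem cells. PRSS2 encodes anionic trypsinogen, the inactive precursor of a digestive protease secreted by pancreatic acinar cells, and TFF3 encodes intestinal trefoil factor, a small peptide that goblet cells release with mucus and that aids repair of the epithelium. SHISA2 encodes a membrane protein of the endoplasmic reticulum that holds back immature FGF and Frizzled receptors and so lowers the response of a cell to FGF and Wnt ligands.

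The DNA upstream of the annotated starts is shown for the genes that have a close relative or a neighbor moving with them (PRSS2 and its paralog PRSS1, IKZF2) and for the most abundant of the 4 (SHISA2). RefSeq (GRCh38.p14) upstream windows were found for 3 of the 4 genes. Each line gives the 250 bases before the start, 5′ to 3′ on the strand of the gene, with matches to the searched motifs in capitals. PRSS2 is the window chr7:142770720-142770969 (plus strand), PRSS1 is chr7:142749222-142749471 (plus strand), SHISA2 is chr13:26052017-26052266 (minus strand) and IKZF2 is chr2:213152457-213152706 (minus strand), the outer of 2 annotated starts.
PRSS2: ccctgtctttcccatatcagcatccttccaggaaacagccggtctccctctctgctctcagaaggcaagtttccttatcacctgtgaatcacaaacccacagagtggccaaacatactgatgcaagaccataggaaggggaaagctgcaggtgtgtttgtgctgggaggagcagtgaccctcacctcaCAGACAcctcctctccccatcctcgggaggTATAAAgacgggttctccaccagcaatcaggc
PRSS1: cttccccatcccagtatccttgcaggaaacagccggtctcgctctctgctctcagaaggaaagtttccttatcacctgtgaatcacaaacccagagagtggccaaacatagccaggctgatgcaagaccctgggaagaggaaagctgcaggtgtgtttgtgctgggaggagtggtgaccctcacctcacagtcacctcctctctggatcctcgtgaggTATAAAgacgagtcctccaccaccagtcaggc
SHISA2: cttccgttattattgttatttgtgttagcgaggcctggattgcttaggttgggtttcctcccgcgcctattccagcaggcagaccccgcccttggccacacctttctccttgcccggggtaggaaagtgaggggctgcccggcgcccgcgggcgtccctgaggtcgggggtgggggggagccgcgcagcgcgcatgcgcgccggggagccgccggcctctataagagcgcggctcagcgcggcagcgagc
IKZF2: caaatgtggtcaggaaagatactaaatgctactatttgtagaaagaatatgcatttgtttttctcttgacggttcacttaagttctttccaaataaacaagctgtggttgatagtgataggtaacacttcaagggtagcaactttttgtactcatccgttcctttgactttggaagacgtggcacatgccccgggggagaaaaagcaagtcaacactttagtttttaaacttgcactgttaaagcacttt

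The PRSS2 and PRSS1 windows were identical at 222 of 256 alignment positions (86.7%). Both held TATAAA, the TATA box, 32 to 27 bases before the start, a motif found in 10.7% of 35116 RefSeq windows of this length. PRSS2 also held CAGACA, a SMAD motif, 62 to 57 bases before the start, as did 13.6% of windows, and in PRSS1 this run of bases was not found. All motifs were searched on both strands. The others were the FOX motifs TGTTTAC, found in 2.98% of windows, and TGTTTGC, found in 3.23%, the SOX motif ACAATGG, found in 2.62%, the motif of GATA factors AGATAA, found in 9.17%, the TEAD motif GGAATG, found in 11.9%, and the T-box motif GGTGTGA, found in 2.76%. Neither the outer IKZF2 window nor the SHISA2 window held any of the motifs. The window before the inner IKZF2 start held GGAATG on the opposite strand, 118 to 113 bases from that start. These are matches of letters only. The SHISA2 window was rich in G and C (67.6%, with 26 CG pairs, against medians of 58.0% and 11), whereas the outer IKZF2 window was poor in them (38.0%, with 4 CG pairs).

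Library totals, recovered from the FPKM (reads scaled by gene length and library total), were 18877964 to 24419937 reads in control and 16681280 to 18389543 with SAR. Control replicate 1 stood apart. It had 33169 genes above 0, against 29506 to 30109 in the other 5 libraries, and it held reads of genes of differentiated tissues that the other libraries nearly lacked, such as MUC2, the main intestinal mucin, with 120 reads against at most 1. Of 18 trefoil and mucus genes, 17 were higher in control replicate 1 than in the other control libraries, as were 20 of 23 digestive enzyme genes with any reads and 10 of 10 T lymphocyte markers, against 48.1% of all genes with a mean under 0.5 FPKM. Values are therefore also given without this library where it matters. Genes were called at an adjusted p under 0.05 with a log2 difference above 1, which 3.41% of 16371 tested genes met as higher with SAR, or under -1, which 1.58% met as lower. Of 12 DE markers, 3 were called higher with SAR (SOX17, FOXA2 and HHEX) and 5 lower (GATA4, EOMES, CER1, GSC and MIXL1), with none at 0, and their summed level was 4018 to 5124 FPKM in control and 2105 to 2162 with SAR. Their 2 most abundant genes were CER1, at 4104 FPKM in control, and CXCR4, at 117.9 FPKM. SOX17 lost its call without SAR replicate 1 (0.87) and after median-ratio rescaling (0.92), HHEX without SAR replicate 1 (0.87) or control replicate 1 (0.95) and after that rescaling (0.89), GATA4 without SAR replicate 3 (-0.89) and with a pseudocount of 1 (-0.95), and CER1 after quantile normalization (-0.93), while KIT, at 0.98, gained a call without control replicate 2 (1.06), SAR replicate 1 (1.00) or SAR replicate 2 (1.05). Of 8 pluripotency markers, NANOG was called lower, and the summed level was 858 to 961 FPKM in control and 1058 to 1070 with SAR, led by LIN28A and TDGF1, and SOX2 gained a call as higher without control replicate 1 (1.10). TBXT was the only called gene of 4 tested mesoderm markers (higher, with KDR as the most abundant gene), and OLIG3 of 3 tested neural ectoderm markers (higher, with OTX2 and NES as the most abundant genes). OLIG3, with 7, 0 and 0 reads in control and 85 to 196 with SAR, passed the filter on low values only through its SAR libraries, so its call is no independent evidence. In bulk RNA, more cells of a type and more RNA per cell cannot be told apart, and the part of these shifts in the results below was not tested.

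IKZF2 (ENSG00000030419, chr2:212999691-213152427, minus strand, GENCODE 29 on GRCh38) was scarce in control, at 0.380, 0.311 and 0.376 FPKM, from 102, 93 and 87 reads. With SAR it reached 2.48, 2.32 and 2.30 FPKM, from 506, 481 and 517 reads. The groups were far apart, and the lowest SAR library was 6.04 times the highest control library. The group means were 0.356 ± 0.0389 and 2.36 ± 0.0989 FPKM (SD, n = 3 each), a ratio of 6.64, and the difference on the log2(FPKM + 0.1) scale was 2.44 (SE 0.14). IKZF2 remained a gene of moderate rank even so, above 40.5 to 44.4% of the genes with any reads in a given control library and above 64.8 to 65.6% of those in a SAR library.

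PRSS2 (ENSG00000275896, chr7:142760398-142774564, plus strand) was already well expressed in control, at 11.3, 12.3 and 12.8 FPKM, from 311, 377 and 303 reads. The SAR libraries held 43.2, 40.1 and 43.8 FPKM, from 908, 855 and 1013 reads. Every SAR library was at least 3.14 times every control library, and both groups were tight, with coefficients of variation of 6.20% and 4.70%. The means of 12.1 ± 0.750 and 42.4 ± 1.99 FPKM (SD, n = 3 each) gave a ratio of 3.50 and a log2 difference of 1.80 (SE 0.07). Among the genes with any reads in the same library, PRSS2 stood above 88.5 to 88.7% in control and above 96.7 to 97.1% with SAR.

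TFF3 (ENSG00000160180, chr21:42311667-42315651, minus strand) had 1.14, 0.267 and 0.402 FPKM in control, which rest on 23, 6 and 7 reads. With SAR it had 11.6, 11.3 and 12.6 FPKM, from 178, 176 and 213 reads. The SAR libraries were alike, whereas control replicate 1, the library with reads of many mucus genes, held more TFF3 than the other 2 control libraries together. The means were 0.603 ± 0.469 and 11.8 ± 0.678 FPKM (SD, n = 3 each), a ratio of 19.6 and a log2 difference of 4.28 (SE 0.41). Without control replicate 1 the control mean was 0.334 FPKM, the ratio 35.3 and the log2 difference 4.79. The ratio of summed reads per library total was 19.7 (95% exact interval 14.1 to 28.5) with all libraries and 36.3 (21.1 to 68.6) without it, intervals that cover counting error only.

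SHISA2 (ENSG00000180730, chr13:26044597-26051031, minus strand) was the most abundant of the 4 genes. Control libraries held 22.8, 22.4 and 26.2 FPKM from 1903 to 2106 reads, and SAR libraries 83.1, 69.4 and 76.1 FPKM from 4523 to 5377 reads. The lowest SAR library was 2.65 times the highest control library. The means of 23.8 ± 2.08 and 76.2 ± 6.83 FPKM (SD, n = 3 each) gave a ratio of 3.20 and a log2 difference of 1.67 (SE 0.09). With SAR the gene stood above 98.2 to 98.5% of the genes with any reads in the same library, against 94.0 to 94.8% in control.

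**Figure D1:**
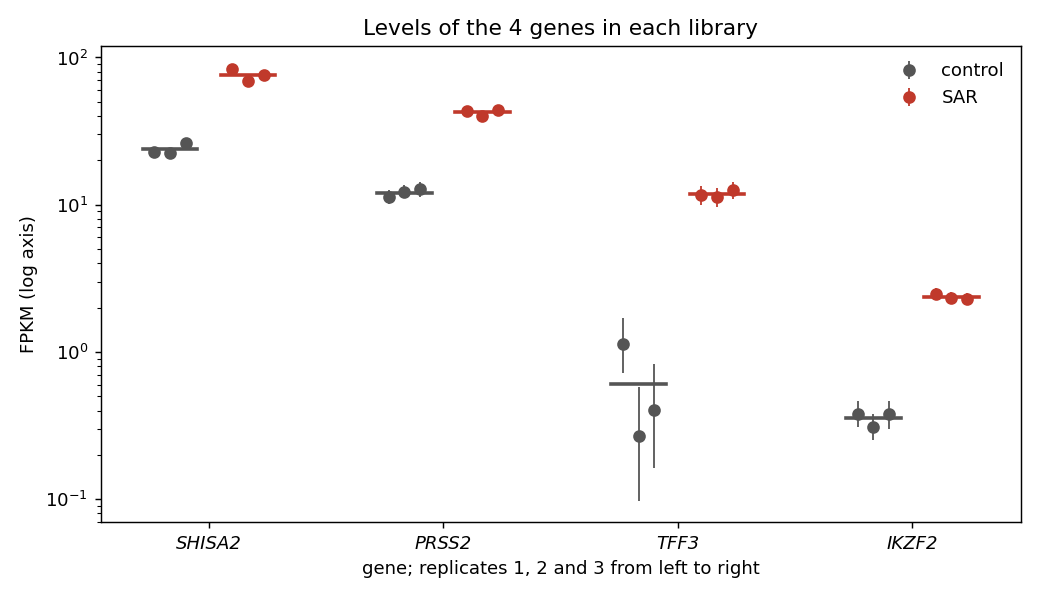
Level of each gene in each library in FPKM on a log axis, with control in gray and SAR in red; points are libraries, bars are 95% intervals that cover counting error only, and horizontal lines are group means. Each gene has its 3 SAR libraries above its 3 control libraries, and TFF3 has the widest spread in control (0.267 to 1.14 FPKM).

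For all 4 genes the 3 SAR libraries lay above the 3 control libraries, which was also true of 5815 of the 16371 genes tested, those averaging 0.5 FPKM or more over the 6 libraries (35.5%). The call rule used for other genes was met by 559 of these (3.41%) as higher with SAR and by 259 (1.58%) as lower. The 4 genes were chosen on this same difference, so nothing is read from either share. All 4 passed the filter on low values, IKZF2 only through its SAR libraries, since its control mean was under 0.5 FPKM. The control mean of TFF3, 0.603 FPKM, was above 0.5 only through control replicate 1, and was 0.334 FPKM without that library. Ordered by log2 difference, 3 of the 16371 genes exceeded TFF3, 64 exceeded IKZF2, 158 exceeded PRSS2 and 193 exceeded SHISA2. The median over all 16371 genes was 0.12, and rescaling each library by the median ratio over genes brought it to -0.02 and gave 4.16 for TFF3, 2.32 for IKZF2, 1.66 for PRSS2 and 1.53 for SHISA2.

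FPKM are per length, so the 4 genes can also be ranked among themselves. In the SAR libraries the order was SHISA2, PRSS2, TFF3, IKZF2 in every case, and the ranges of neighbors in that order did not overlap. In control the first 2 places were the same, but TFF3 and IKZF2 could not be ordered, since TFF3 was 2.99 times IKZF2 in control replicate 1 and 0.857 and 1.07 times in the other 2. The gap between SHISA2 and PRSS2 was nearly constant, at 1.83 to 2.06 times in control and 1.73 to 1.92 times with SAR. The gap between PRSS2 and TFF3 narrowed from 9.90, 46.0 and 31.7 times in control to 3.48 to 3.74 times with SAR.

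The spread between replicates differed among the 4 genes. Against the spread expected from read counting alone (chi-square per degree of freedom, near 1 if counting is the only source), IKZF2 gave 1.21 in control and 0.867 with SAR, and PRSS2 gave 1.22 and 2.03. SHISA2 exceeded counting error by more, at 14.3 and 39.6, against medians of 3.99 and 18.1 for genes with similar read numbers. These values were above those of 85.6% and 75.0% of such genes. The measure grows with read number, so it does not rank relative spread. Coefficients of variation in control and SAR were 8.73% and 8.97% for SHISA2, and 10.9% and 4.18% for IKZF2. TFF3 gave 7.56 in control, more than 99.0% of 792 genes with similar read numbers, and 0.639 with SAR. Over the deviations of the 6 libraries from their group means, the correlations between members ran from -0.63 (PRSS2 with TFF3) to 0.72 (PRSS2 with SHISA2), with IKZF2 at 0.65 with TFF3 and 0.58 with SHISA2. These rest on 6 libraries that share totals, and are given only as a description.

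The length by which reads were divided can be read from the FPKM. It was 1259 bases for PRSS2, equal to the exons in GENCODE 29, and 12243 against 12240 for IKZF2. For TFF3 it was 922 against 1168 bases, and for SHISA2 3845 against 2860, a surplus of 985 bases that equals the further reach of the RefSeq gene at its 5′ end. The ratios between groups do not depend on these lengths, whereas the order of levels does. For PRSS2 the RefSeq start, chr7:142770970, lies inside the GENCODE 29 gene, which starts at 142760398. The PRSS2 window printed above therefore also lies inside that gene, not before its GENCODE 29 start. No exon of IKZF2, TFF3 or SHISA2 overlapped another gene, and PRSS2 shared 40 of 1259 exon bases (3.18%) with the pseudogene PRSS3P1 on the same strand.

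Trypsinogen genes resemble each other closely, and reads of PRSS2 could be split among them. The longest coding transcripts of PRSS2 and PRSS1, cationic trypsinogen, were identical at 93.1% of 802 aligned bases. Of the 50-base stretches of PRSS2 transcripts, 10.6% also occur in another gene, mostly PRSS1, and of the 100-base stretches 0.416%. No 50-base stretch of IKZF2 or TFF3 transcripts occurs in another gene, and 0.462% of those of SHISA2 do. How the authors' counting assigned any shared reads was not tested, and the levels of PRSS2 and PRSS1 are uncertain to that extent.

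PRSS1 was higher with SAR as well. It had 1.68, 1.40 and 1.69 FPKM in control and 7.09, 5.47 and 5.80 FPKM with SAR, from 60 to 69 and 174 to 222 reads. The log2 difference was 1.88 (SE 0.12), and limma's moderated test gave a Benjamini-Hochberg adjusted p of 0.000353. PRSS2 was 6.72, 8.78 and 7.53 times PRSS1 in control and 6.10, 7.32 and 7.55 times with SAR, so the balance of anionic to cationic trypsinogen overlapped between the groups. PRSS3, mesotrypsinogen, stayed at the edge of detection, at 0.0372 to 0.384 FPKM in control and 0.0841 to 0.153 FPKM with SAR, from 1 to 12 reads.

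Most other genes of the pancreatic secretion were close to silent. Of 24 listed digestive enzymes and zymogens without PRSS2, 23 were in the table, 13 had a mean under 0.1 FPKM, and 3 passed the filter. Of these only PRSS1 was called higher, as were 3.41% of all tested genes. The median difference of the 3 was 0.89, which is the value of AMY2B, so it is not set against the median of all tested genes. CEL, also tested, had 0.536 ± 0.269 and 0.805 ± 0.150 FPKM. The pancreatic amylase gene AMY2B had 0.482 ± 0.122 FPKM in control and 0.969 ± 0.0964 with SAR (SD, n = 3 each), a log2 difference of 0.89 that did not reach the call, though it did without control replicate 1 (1.06), and it passed the filter only through its SAR libraries. Of 6 regulators of acinar cells, 2 were tested and GATA4 was called lower, as were 1.58% of all tested genes. It lost this call without SAR replicate 3 (-0.89) and with a pseudocount of 1 (-0.95). The regulators PTF1A and PDX1, which define the pancreatic lineage, had reads only in control replicate 1. The summed level of the 6 was 14.1 to 15.2 FPKM in control and 6.81 to 9.01 FPKM with SAR, with GATA4 and NR5A2 the most abundant. Most of this sum was GATA4 alone, at 13.7 ± 0.412 and 6.68 ± 1.33 FPKM. NR5A2, the other tested regulator, went the other way, with 0.462 ± 0.165 and 0.800 ± 0.173 FPKM. Its log2 difference of 0.70 was not called, and it passed the filter only through its SAR libraries.

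Of 13 listed genes that activate, inhibit or sense trypsin, 9 were tested and 3 had a mean under 0.1 FPKM. None was called at the fold required, while 6 were higher at an adjusted p under 0.05 without a minimum fold, as were 23.7% of all tested genes, and none lower, as were 9.55%. Their median log2 difference was 0.41. SPINT1, a surface inhibitor of serine proteases, had 32.5 ± 0.701 FPKM in control and 45.3 ± 2.76 with SAR (limma adjusted p = 0.00231 for a log2 difference of 0.47). F2RL1, the receptor that trypsin cleaves, had 18.1 ± 0.759 and 24.7 ± 1.28 FPKM (limma adjusted p = 0.0031 for 0.45). TMPRSS15, the enteropeptidase that activates trypsinogen in the gut, had a mean near 0.0935 FPKM over the 6 libraries.

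Of the other 4 IKAROS genes, IKZF4 and IKZF5 were tested and neither was called. IKZF5, the most abundant, had 7.73 ± 0.377 FPKM in control and 7.22 ± 0.353 with SAR (a log2 difference of -0.10, limma adjusted p = 0.293), and IKZF4 had 1.77 ± 0.202 and 1.47 ± 0.181 FPKM (-0.26, limma adjusted p = 0.178). IKZF1 and IKZF3, the members typical of lymphocytes, had at most 0.0543 FPKM in any library. IKZF2 was 0.191 to 0.219 times IKZF4 in control and 1.42 to 1.96 times IKZF4 with SAR. Of 10 T lymphocyte markers only CD4 was tested, through its SAR libraries alone, and leaving out control replicate 1 gave it a call (0.82 with all libraries and 1.10 without it). Their summed level was 0.564 to 2.65 FPKM in control, highest in control replicate 1, and 1.25 to 1.42 FPKM with SAR. The next most abundant of them, CD3D, had 15 reads in control replicate 1 and 1 to 3 in the other libraries.

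The other trefoil and mucus genes had little RNA. TFF1, which lies 46631 bases from TFF3 on chromosome 21, had 5, 3 and 5 reads in control and 1, 2 and 1 with SAR, a ratio of reads per library total of 0.386 (95% exact interval 0.0916 to 1.25), and it did not pass the filter on low values. TFF2 had 4 reads in control replicate 1 and none in the other 5 libraries, and a count of 0 allows up to 3 reads. Of 18 genes of trefoil peptides, mucins and goblet cells, 3 were tested and MUC1 was called higher, as were 3.41% of all tested genes. MUC1, a mucin anchored in the cell surface, had 0.455, 0.252 and 0.236 FPKM in control and 0.826, 0.676 and 0.911 FPKM with SAR, a log2 difference of 1.16. Its control mean of 0.314 FPKM was under the filter, so it was tested only because its SAR libraries were high, and without SAR replicate 3 it was not tested. It kept its call in 7 of 13 alternative analyses and lost it without control replicate 2 (1.06), control replicate 3 (1.02), SAR replicate 1 (1.13) or SAR replicate 2 (1.26), with a pseudocount of 1 (0.46) and after quantile normalization (0.94). SPDEF, a regulator of goblet cells, had a difference of 0.96, which was not called but was without control replicate 1 (1.13, limma adjusted p = 0.0089), and KLF4 had 0.34. The secreted mucins MUC2, MUC5AC, MUC5B and MUC6 were at 0 to 4 reads in the 5 libraries other than control replicate 1.

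SHISA3, a relative that acts on the same kinds of receptor, had 5.45, 5.45 and 4.65 FPKM in control and 28.2, 22.3 and 19.2 FPKM with SAR, without overlap. The log2 difference was 2.13 (limma adjusted p = 0.000355). SHISA2 was 4.12 to 5.63 times SHISA3 in control and 2.95 to 3.97 times with SAR, and with 3 against 3 libraries an exact permutation test of this ratio could not give a two-sided p below 0.1. Of 10 listed relatives 6 were tested, and SHISA3 was the only one called higher, as were 3.41% of all tested genes. The median log2 difference of the 6 was 0.26, against 0.12 for all tested genes. The 2 most abundant, SHISAL2B (34.6 ± 3.39 and 32.6 ± 5.34 FPKM) and SHISA5 (28.2 ± 1.24 and 33.3 ± 0.575 FPKM), had differences of -0.09 and 0.24.

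**Figure D2:**
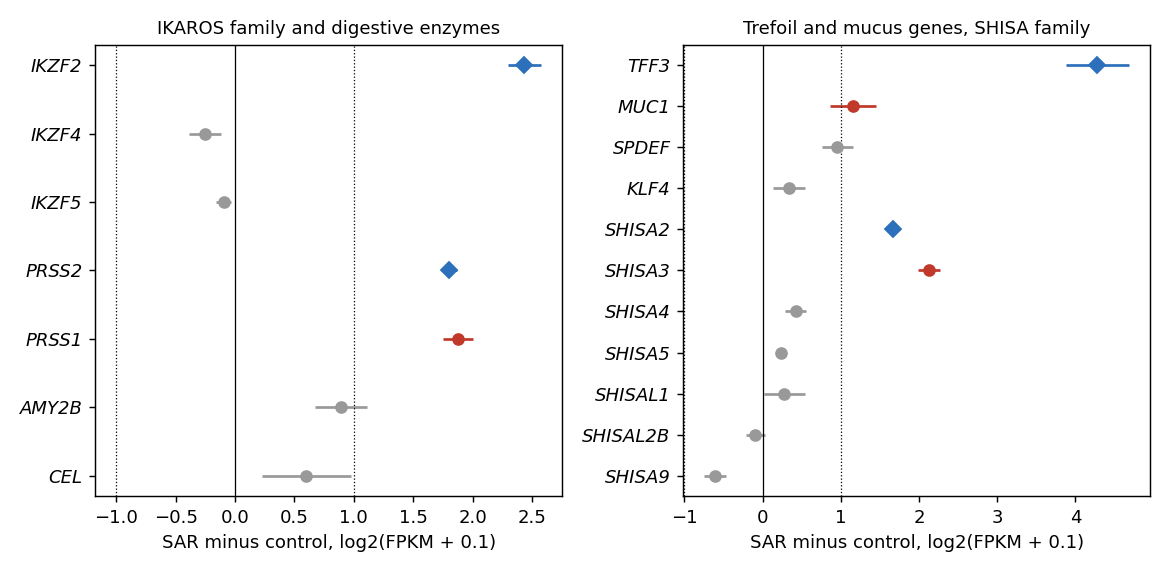
SAR minus control on the log2(FPKM + 0.1) scale with the standard error, for the 4 genes (blue diamonds, chosen on this value) and the tested genes of their families and pathways (red, called higher; gray, not called); dotted lines mark differences of -1 and 1. PRSS1 (1.88) and SHISA3 (2.13) lie near PRSS2 and SHISA2, while IKZF4 and IKZF5 lie just below 0.

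Most genes of FGF and Frizzled receptors, the classes on which SHISA2 acts, and of LRP co-receptors were expressed in both groups. Of 16 genes of FGF receptors, Frizzled receptors and LRP co-receptors, 15 were tested, 3 were called higher and none lower (3.41% and 1.58% of all tested genes), and their median difference was 0.39 against 0.12 for all tested genes. FZD8 had 9.91, 10.4 and 11.7 FPKM in control and 29.6, 26.3 and 19.3 FPKM with SAR (log2 difference 1.21, limma adjusted p = 0.00259). FZD2 had 5.22 ± 0.256 and 11.7 ± 1.45 FPKM (1.14, limma adjusted p = 0.000703), and FZD1 0.692 ± 0.0553 and 1.92 ± 0.121 FPKM (1.35, limma adjusted p = 0.000926). The 2 receptor genes with the most RNA were not called. FZD5 had 149.5 ± 11.5 and 195.6 ± 5.71 FPKM (0.39, limma adjusted p = 0.0073), and FZD7 had 49.4 ± 2.73 and 56.3 ± 3.53 FPKM (0.19, limma adjusted p = 0.072). Of the 4 FGF receptors none was called. Without a minimum fold, 8 of the 15 tested genes were higher, against 23.7% of all tested genes.

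**Figure D3:**
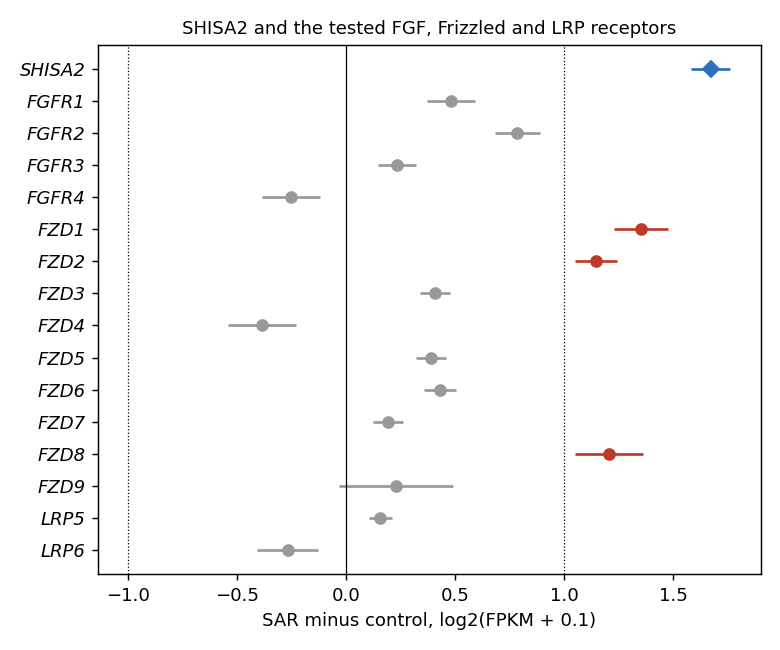
SAR minus control on the log2(FPKM + 0.1) scale with the standard error, for SHISA2 (blue diamond) and the 15 tested genes of FGF receptors, Frizzled receptors and LRP co-receptors (red, called higher; gray, not called). FZD1, FZD2 and FZD8 pass the dotted line at 1, and FZD5, the most abundant, lies at 0.39.

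Genes around the 4 loci were compared next. Within 500 kb of the 4 gene bodies the table holds 72 other genes, of which 23 were tested, 5 were called higher and none lower (3.41% and 1.58% of all tested genes), with a median difference of 0.22. Of the 5, ENSG00000270659, ABCG1 and RSPH1 had control means under 0.5 FPKM and were tested only because their SAR libraries were high, so they are described without a p, and the count with them is no support. The other 2 were PRSS1 and SPAG16. Closest was ENSG00000270659, a long noncoding RNA gene (chr2:213152970-213153659, plus strand) that starts 543 bases beyond the 5′ end of IKZF2 and runs the opposite way, with the result that the outer IKZF2 window printed above lies in the gap. It had 4, 4 and 1 reads in control and 36, 24 and 26 with SAR (0.193 ± 0.102 and 2.41 ± 0.622 FPKM, log2 difference 3.14). The ratio of reads per library total was 12.0, with a wide 95% exact interval of 6.02 to 27.1 that covers counting error only. Its position does not overlap the exons of IKZF2. On the same side, SPAG16, a gene of the motile cilium, began 131952 bases away and had 3.38 ± 0.0627 and 6.91 ± 0.492 FPKM (1.01, limma adjusted p = 0.000432), a value at the edge of the call that fell under it without control replicate 2 (0.99) or SAR replicate 1 (0.96), after median-ratio rescaling (0.87) or quantile normalization (0.90), and with a pseudocount of 1 (0.85). ERBB4, on the other side, had a difference of -0.63 and was not called.

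Beside PRSS2, PRSS1 ended 7322 bases upstream and was the only one of 7 tested neighbors to be called higher, against 3.41% of all tested genes. Of the T cell receptor beta genes that surround PRSS2 in the genome, TRBC2 had 4.41 ± 1.87 and 3.86 ± 0.729 FPKM (-0.13). Near TFF3, 2 of 11 tested neighbors, ABCG1 and RSPH1, were called higher, against 3.41% of all tested genes. Both were tested only because their SAR libraries were high, so this count is no support. ABCG1, a sterol transporter gene 14423 bases away, had 0.493 ± 0.126 and 1.24 ± 0.0794 FPKM (1.19). RSPH1, for a protein of the ciliary axoneme, lay 156835 bases away and had 0.245 ± 0.0763 and 1.31 ± 0.122 FPKM (2.05). The trefoil genes TFF2 and TFF1 lie between TFF3 and RSPH1 and had the few reads given above. An antisense gene, ENSG00000235772, gained a call without control replicate 3 (1.22, limma adjusted p = 0.0291). The 2 tested neighbors of SHISA2, RNF6 and CDK8, had differences of 0.08 and 0.04. The most abundant of all 23 were CDK8 and PDE9A, a phosphodiesterase gene near TFF3 with a difference of 0.34 that was not called.

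**Figure D4:**
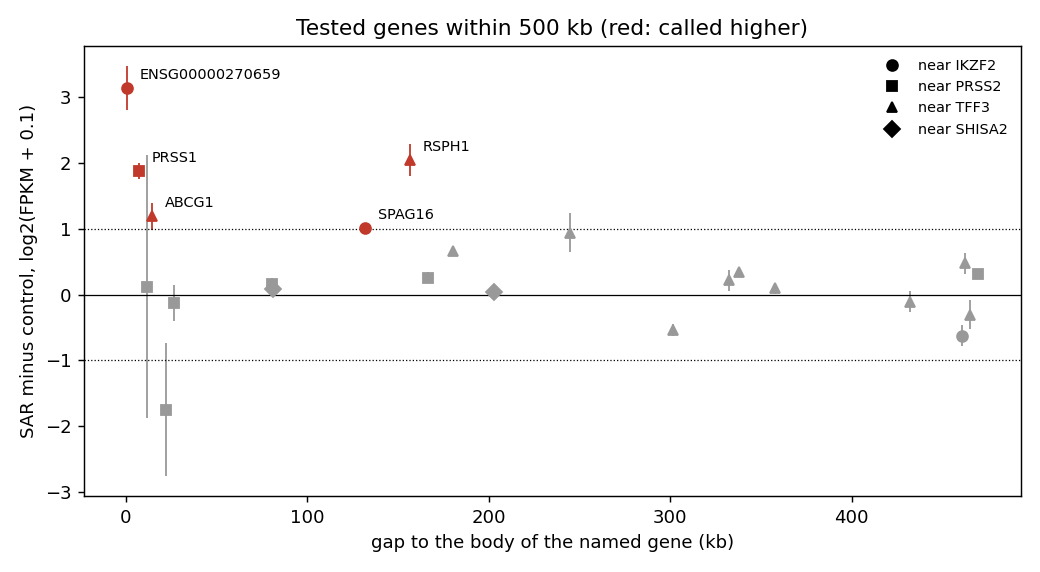
SAR minus control on the log2(FPKM + 0.1) scale with the standard error, against the gap in kb to the nearest end of the member gene, for the 23 tested genes within 500 kb of IKZF2 (circles), PRSS2 (squares), TFF3 (triangles) and SHISA2 (diamonds). The 5 called genes are red and named, 3 of them lie within 100 kb, and ENSG00000270659, ABCG1 and RSPH1 were tested only because their SAR libraries were high.

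The genes most like each member were sought by Pearson's correlation of log2(FPKM + 0.1) over the 6 libraries, among 13473 genes with a symbol and a mean of at least 1 FPKM. For IKZF2 they were RHOU (0.9995), PTER (0.9993) and INTS10 (0.9988). For PRSS2 they were FOXA2 (0.9992), a defining transcription factor of DE, CAMK2N1 (0.9987) and C12orf76 (0.9984). For TFF3 they were HSD11B1L (0.9995), CXCL12 (0.9990) and GFRA1 (0.9986), and for SHISA2 they were NEBL (0.9996), FAR2P2 (0.9994) and C12orf76 (0.9991). For each member 125 to 167 of the 13473 genes reached 0.99 or above, so such values single out no gene. With 6 libraries in 2 distant groups, a gene that is higher with SAR and tight within groups correlates highly with a member. By deviations from the group means, which leave out the difference between groups, none of the 3 names of a member was among the first 3 for that same member.

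FOXA2 had 22.3, 23.3 and 25.1 FPKM in control and 67.3, 60.1 and 64.7 FPKM with SAR. SOX17 and HHEX, which were higher with SAR as well, varied more between SAR libraries, with coefficients of variation of 27.1% and 22.1%, against 5.71% for FOXA2. Among DE markers called lower the spread with SAR also differed (mean ± SD). CER1 had 1683 ± 35.4, EOMES 32.1 ± 2.82, GSC 25.4 ± 3.79, GATA4 6.68 ± 1.33 and MIXL1 17.8 ± 4.30 FPKM. A small spread was thus not particular to genes that rose. For the 4 members this coefficient was 4.18% (IKZF2), 4.70% (PRSS2), 5.75% (TFF3) and 8.97% (SHISA2).

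**Figure D5:**
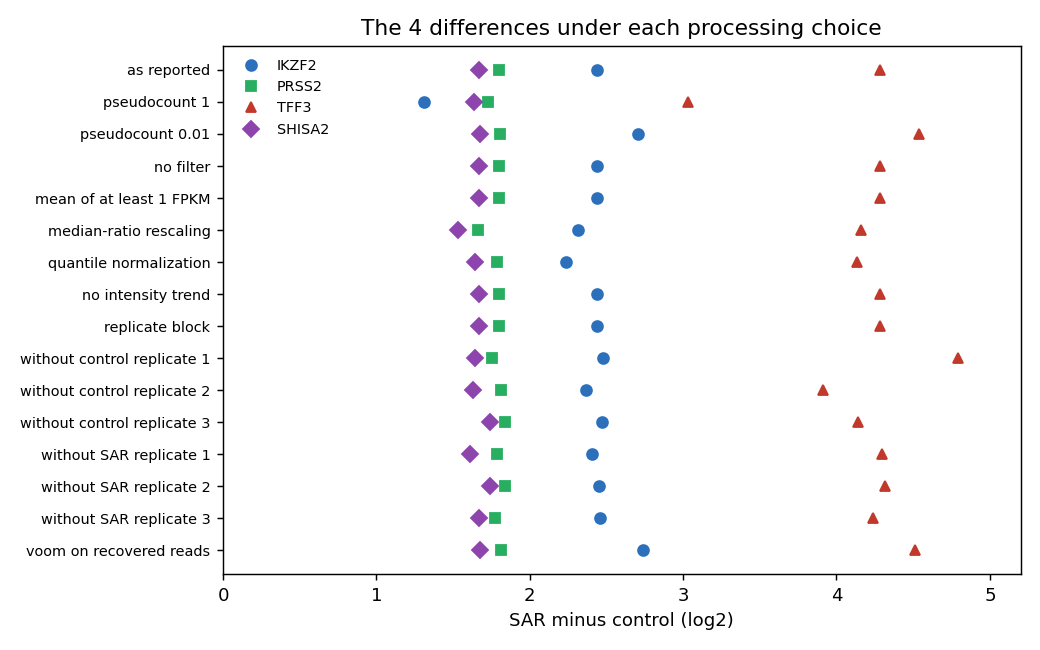
SAR minus control on the log2 scale for each member under each processing choice, 1 row per choice. Every value lies above 0, with IKZF2 between 1.31 and 2.74, PRSS2 between 1.66 and 1.84, TFF3 between 3.04 and 4.79 and SHISA2 between 1.53 and 1.74.

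The plot of the differences under each processing choice shows which of them rest on the treatment of low values. PRSS2 and SHISA2 moved little. IKZF2 and TFF3, whose control levels were near or below 1 FPKM, fell to 1.31 and 3.04 with a pseudocount of 1, which is larger than most of their control values.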

How the data were processed

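Poly(A) RNA of 3 control and 3 SAR samples was sequenced, and the authors deposited FPKM for 40396 Ensembl genes, 1 column per library. The submitters' processing notes name HISAT2, featureCounts, DESeq2 and GRCh38.p13, without versions or roles. The annotation release and strand setting are not given in the sources used here. FPKM are scaled only by library total and gene length. Whole reads were recovered from the FPKM of all genes (tolerance 0.01 reads) with the ratios between libraries and GENCODE 29 lengths, which equaled the implied length in 58.1% of 39023 genes, and give the depth behind each value.

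Because FPKM are not counts, limma 3.58.1 (R 4.3.3, intensity trend) was fitted to log2(FPKM + 0.1) of the 16371 genes averaging 0.5 FPKM or more over the 6 libraries, without a replicate block, with Benjamini-Hochberg adjustment. Fold changes on this scale understate the change of low genes. Genes were called at an adjusted p under 0.05 and an absolute log2 difference above 1. The test was tested on simulated data. Python 3.11.15 with pandas 2.3.3, numpy 2.4.6, scipy 1.17.1 and matplotlib 3.10.9 made the summaries and plots. Members and gene lists were chosen with earlier results of these data known. Named genes were the members, up to 5 called genes and the 2 most abundant genes of each list and of the neighbors, PRSS1, PRSS3, TFF1, TFF2 and the IKAROS genes, and the 3 genes most like each member. Other genes (among them MUC2 and other secreted mucins, PTF1A, PDX1, CEL, TMPRSS15, SOX2, KIT, ENSG00000235772, ERBB4, TRBC2 and RNF6) were named after their values were seen. Alternatives were pseudocounts of 1 and 0.01, a minimum mean of 1 FPKM or no filter, median-ratio rescaling, quantile normalization, limma-voom on the recovered reads, no intensity trend, no minimum fold, a replicate block, other neighbor windows and each library left out.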

Additional observations from a re-analysis of the deposited data

How the results depend on the processing

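Of 512 recomputed values over 32 results, 463 stayed within the replicate spread or within 1.5 times the count reported, 49 moved and 0 reversed. Many could not move. The choice of filter, intensity trend or replicate block leaves the log2 difference of a member unchanged by construction, and many list counts were 0 throughout. A count of calls cannot reverse, so these totals do not measure robustness. Genes called higher, 559 in the main analysis, numbered 169 with a pseudocount of 1, 369 with a minimum mean of 1 FPKM, 340 after quantile normalization and 3885 without a minimum fold (440 to 722 leaving out each library). Genes called lower, 259 in the main analysis, numbered 141, 409 and 1563 with a pseudocount of 1, quantile normalization and no minimum fold (215 to 338). Median-ratio rescaling gave 387 higher and 380 lower. The log2 difference of IKZF2 was 1.31 and 2.70 with pseudocounts of 1 and 0.01, 2.32 after median-ratio rescaling, 2.23 after quantile normalization and 2.74 with voom. Median-ratio rescaling gave 1.66 for PRSS2 and 1.53 for SHISA2, and a pseudocount of 1 gave 3.04 for TFF3. Leaving out each library gave 2.36 to 2.48 for IKZF2, 1.75 to 1.84 for PRSS2, 3.91 to 4.79 for TFF3 and 1.61 to 1.74 for SHISA2.

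Among the lists, digestive enzymes called higher were 2 with a pseudocount of 0.01, with voom and without a minimum fold (1 to 2 leaving out each library). Trefoil and mucus genes called higher were 0 with a pseudocount of 1, a minimum mean of 1 FPKM and quantile normalization, and 2 with a pseudocount of 0.01, voom and no minimum fold (0 to 2). Without a minimum fold, 6 trypsin-related genes, 3 SHISA genes, 8 receptors, 3 pluripotency markers and 2 mesoderm markers were higher, and 1 SHISA gene and 1 mesoderm marker lower. Median-ratio rescaling left 1 DE marker higher (2 to 4 leaving out each library). Pluripotency markers and T lymphocyte markers called higher, and acinar regulators called lower, were 0 to 1 leaving out each library, and the last were 0 with a pseudocount of 1. Neighbors called higher were 2 with a pseudocount of 1, 3 with a minimum mean of 1 FPKM, 3 after quantile normalization, 3 within 100 kb and 9 without a minimum fold, when 2 were lower (4 to 6 leaving out each library). The cause of these shifts was not tested, except that a minimum mean or a narrower window leaves fewer genes and no minimum fold admits more.

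With the replicate block, 546 genes were called higher and 274 lower, and no count of calls over a list moved beyond 1.5 times. Same-numbered control and SAR libraries correlated in their deviations at 0.0729, 0.00286 and 0.0247, so the numbers were not taken as pairs. The depth limits TFF3 in control (6 to 23 reads), TFF1 and the noncoding gene beside IKZF2.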
